A study of Mus musculus with 16 samples.

Results

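Integrins and laminins form the adhesion system by which cells hold on to the basement membrane, and their transcripts were read here in whole lungs of IL-31RA knockout and wildtype mice. The genes were chosen by name: listed genes whose symbol follows the naming of integrin alpha chains (Itga), integrin beta chains (Itgb) or laminin chains (Lama, Lamb, Lamc), together with the linkers Nid1, Nid2, Hspg2 and Agrn. This gave 39 genes of the 16380 listed, made up of 17 integrin alpha chains, 8 integrin beta chains, 10 laminin chains and 4 linkers. The rule itself uses symbols alone. The mean over all 16 libraries was at least 1 RPKM (reads per gene length and library size) for 35 of the 39 genes, while Itga10, Itga11, Itgad and Itgb8 lay under it.

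There were 4 groups of 4 libraries. KO-Bleo and KO-Sal lungs came from mice in which a construct deletes exons 4 to 6 of Il31ra, the gene of the interleukin 31 receptor, and WT-Bleo and WT-Sal lungs came from their wildtype littermates, all on a C57BL/6 background and 10 to 18 weeks old. Mice of KO-Bleo and WT-Bleo received intradermal bleomycin, a drug that damages DNA, at a dose of 6 U/kg, given on 5 days of each week for 4 weeks, and those of KO-Sal and WT-Sal received saline. The lungs were taken on day 28. The knockout lacks the receptor in every cell, and each library holds RNA of the whole lung, so fewer cells of a type and less RNA per cell cannot be told apart.

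Laminins are secreted as trimers of an alpha, a beta and a gamma chain, which polymerise into a sheet under epithelium and endothelium and around muscle cells. Nidogens (Nid1, Nid2), perlecan (Hspg2) and agrin (Agrn) tie that sheet to type IV collagen and to the cell surface. Integrins are receptors made of an alpha and a beta chain. Some bind laminin, some collagen, some the short RGD motif of fibronectin, osteopontin and latent TGF-beta, and the leukocyte integrins that share the beta2 chain (Itgb2) bind adhesion molecules and complement on other cells.

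The leukocyte chains Itgam (which with Itgb2 forms the receptor Mac-1 of neutrophils, monocytes and macrophages) and Itgax (its close relative on alveolar macrophages and dendritic cells) lie near each other on chromosome 7 and both rose with bleomycin in both genotypes. Their promoters, RefSeq windows on GRCm38.p6 (plus strand) that end with the first 50 bases of a transcript, are shown because the pair moved together. Capitals mark GAGGAA, the core of sites of the myeloid factor PU.1, and TGANTCA, the site of AP-1 factors, each on either strand.
Itgam promoter, chr7:128062390-128062689: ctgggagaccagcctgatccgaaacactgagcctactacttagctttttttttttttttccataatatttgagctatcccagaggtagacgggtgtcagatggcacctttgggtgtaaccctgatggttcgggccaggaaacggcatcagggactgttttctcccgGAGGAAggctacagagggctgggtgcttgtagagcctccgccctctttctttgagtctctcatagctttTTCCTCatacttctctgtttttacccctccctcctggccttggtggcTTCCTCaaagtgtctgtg
Itgax promoter, chr7:128129300-128129599: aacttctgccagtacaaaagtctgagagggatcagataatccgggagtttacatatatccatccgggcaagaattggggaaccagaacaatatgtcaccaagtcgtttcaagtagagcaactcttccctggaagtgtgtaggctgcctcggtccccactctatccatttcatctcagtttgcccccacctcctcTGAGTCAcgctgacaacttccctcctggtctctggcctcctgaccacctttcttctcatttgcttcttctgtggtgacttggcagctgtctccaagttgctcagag
The start used is position 128062640 for Itgam, which is the annotated start of the gene, and position 128129550 for Itgax, 24 bases after the annotated start. The Itgam window holds GAGGAA 3 times, starting 84 and 15 bases before and 32 bases after the start, and no TGANTCA. The Itgax window holds TGANTCA once, 56 bases before that start, and no GAGGAA. RefSeq windows were found for 25 of the 39 genes (29 windows), and GAGGAA stood in 15 of these windows and TGANTCA in 3 (Itga3, Itga9 and Itgax), against 28.3% and 7.81% of all 32851 windows of the same length. Itgb2 and Lama1 had no window in the table.

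Whole reads, recovered from the values for 99.92% of genes, numbered 1234595 to 21810646 per library in KO-Bleo, 15538873 to 17740869 in KO-Sal, 604136 to 32153714 in WT-Bleo and 7790576 to 23481723 in WT-Sal. WT-Bleo replicate 6 (604136 reads) and KO-Bleo replicate 15 (1234595 reads) are much shallower than the rest, and only in them was any of the 39 genes at 0 (Itgad in WT-Bleo replicate 6, Itgb8 in both). Il31ra itself had 2 to 9 reads in KO-Bleo, 2 to 3 in KO-Sal, 0 to 13 in WT-Bleo and 5 to 17 in WT-Sal, too few to check the genotype of a library. Markers of alveolar type 2 cells, the surfactant-producing cells that define lung, summed to between 11582 and 23586 RPKM in each library. Below, values of a group are given in the order of its replicate numbers (13 to 16 in KO-Bleo, 9 to 12 in KO-Sal, 5 to 8 in WT-Bleo, 1 to 4 in WT-Sal). Fold changes are log2 fold changes of RPKM + 1 from limma, which makes the change of genes with low values smaller, and a gene was called at a Benjamini-Hochberg adjusted p under 0.05 over all 16380 genes.

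To see how injury changes the adhesion genes, bleomycin-treated and saline-treated lungs were compared within each genotype. In wildtype lungs, 19 of the 39 genes rose with bleomycin and 6 fell, beside 18.6% of all genes called higher and 12.3% called lower (30.9% called in all). The median log2 fold change was 0.24 over the 39 genes and 0.01 over all genes, and WT-Bleo and WT-Sal did not overlap for 25 of the 39 genes, beside 34.1% of all genes. In knockout lungs, 15 rose and 3 fell, beside 13.2% and 10.4% of all genes (23.6% called in all), with a median of 0.11 over the 39 genes and -0.01 over all genes and no overlap between KO-Bleo and KO-Sal for 18 genes, beside 28.1% of all genes. The calls were shared between the genotypes for 14 genes that rose and for Itga8 and Itgb7, which fell, 9 genes were called in wildtype lungs alone and 2 (Itga11 and Itgae) in knockout lungs alone, and 12 in neither. Limma-voom on the recovered reads called 20 higher and 9 lower in wildtype lungs (43.3% of all genes called), adding Itgb8 (higher) and Itga6, Itgad and Itgb3 (lower), and 17 higher and 6 lower in knockout lungs (29.4% of all genes called), adding Lama2 and Itgb4 (higher) and Itgad, Itgal and Itgb3 (lower). Being called in a single genotype does not show a difference between them, which was tested apart and is given further on. The shares of all genes called higher and lower by limma also stand beside the limma counts of marker genes with bleomycin given below. With median-of-ratios scaling, which moved the share of all wildtype calls that were higher to 49.8%, against 60.1% as deposited, 17 of the 39 genes rose and 8 fell in wildtype lungs. Without KO-Bleo replicate 15, 5 genes fell in knockout lungs, and without WT-Sal replicate 2, 3 fell in wildtype lungs.

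**Figure D1:**
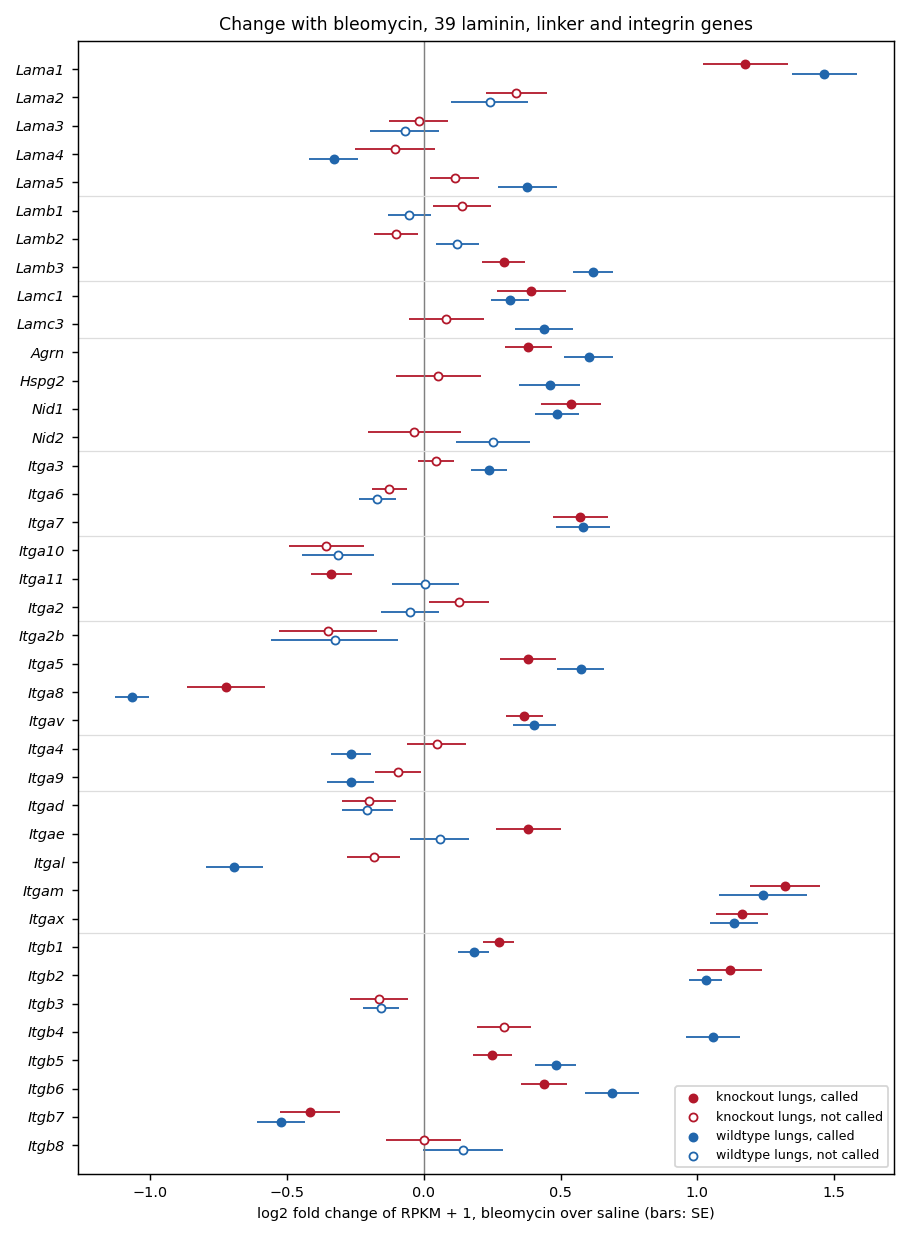
Log2 fold change of RPKM + 1 with bleomycin for each of the 39 genes (horizontal axis, bleomycin over saline), in knockout lungs (red) and wildtype lungs (blue), with genes grouped by role down the page. Points are estimates from 4 libraries against 4, bars are standard errors, and filled points passed the test. Lama1 (1.47) and Itga8 (-1.07) mark the ends in wildtype lungs, and Itgam (1.32) and Itga8 (-0.72) in knockout lungs.

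Among the 5 laminin alpha chains, Lama1 (chromosome 17, 67697127 to 67822645 on GRCm38.p6), a chain best known from embryonic basement membranes, was low in these lungs and had the highest estimates. Lama1 stood at 2.48, 1.59, 2.72 and 3.29 RPKM in KO-Bleo, against 0.503, 0.721, 0.608 and 0.327 RPKM in KO-Sal, and at 2.71, 3.65, 3.35 and 3.77 RPKM in WT-Bleo, against 0.769, 0.592, 0.564 and 0.402 RPKM in WT-Sal. All treated libraries exceeded all saline libraries of their genotype, with log2 fold changes of 1.18 (SE 0.15, adjusted p = 0.000604) in knockout and 1.47 (SE 0.12, adjusted p = 2.38e-05) in wildtype lungs from limma. Even so it made up at most 5.76% of the summed alpha chain RPKM of any library. Lama4, a chain of vessel walls, was at 16.1, 18.6, 16.1 and 23.6 RPKM in KO-Bleo, against 21.2, 17.7, 16.5 and 24.9 RPKM in KO-Sal, and at 16.9, 20.5, 15.9 and 18.7 RPKM in WT-Bleo, against 22.0, 24.4, 20.5 and 24.5 RPKM in WT-Sal. WT-Bleo and WT-Sal overlapped narrowly, since WT-Bleo replicate 6 (20.53 RPKM) lay just above WT-Sal replicate 3 (20.48 RPKM). The log2 fold change of Lama4 was -0.33 (adjusted p = 0.0204) in wildtype lungs, a call that ended without WT-Bleo replicate 5 or 7 or WT-Sal replicate 2 or 4 (adjusted p up to 0.0636), and -0.10 (adjusted p = 0.641) in knockout lungs. Of the 12 endothelial markers, 8 fell in each genotype and 1 rose in wildtype lungs, and they summed to between 807 and 900 RPKM in KO-Bleo and 968 and 1263 RPKM in KO-Sal, and to between 876 and 910 RPKM in WT-Bleo and 1125 and 1292 RPKM in WT-Sal. Their part in the Lama4 values was not tested. Lama5, the most widespread alpha chain of adult epithelia, averaged 15.6 ± 1.48 RPKM in WT-Bleo and 11.8 ± 1.73 RPKM in WT-Sal (SD, n = 4 each; log2 fold change 0.38, adjusted p = 0.026), and this call ended without WT-Bleo replicate 5 or 7 (adjusted p up to 0.0701). Its change in knockout lungs was 0.11 (adjusted p = 0.397). Lama2, the chain of muscle, and Lama3 were called in neither genotype by limma, while limma-voom called Lama2 higher in knockout lungs (0.37, adjusted p = 0.0364).

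Lama3 and Lamb3, chains of the epithelial laminin that anchors epithelial sheets through hemidesmosomes, did not move together. Lamb3 was at 29.1, 23.2, 28.001 and 28.1 RPKM in KO-Bleo, against 22.3, 22.8, 19.9 and 22.7 RPKM in KO-Sal, and at 29.8, 36.2, 28.8 and 31.7 RPKM in WT-Bleo, against 20.8, 19.7, 19.6 and 20.6 RPKM in WT-Sal. It rose in both genotypes, and its log2 fold changes were 0.29 (SE 0.08, adjusted p = 0.0252) in knockout and 0.62 (adjusted p = 0.000229) in wildtype lungs, and the knockout call ended without KO-Bleo replicate 13 or 16 or KO-Sal replicate 9 or 11 (adjusted p up to 0.0752). Lama3 was at 19.2, 17.2, 19.6 and 21.3 RPKM in KO-Bleo, against 21.6, 19.0, 15.7 and 22.5 RPKM in KO-Sal, and at 16.9, 20.4, 17.0 and 16.8 RPKM in WT-Bleo, against 21.8, 19.5, 14.02 and 20.2 RPKM in WT-Sal. Its groups overlapped, and its log2 fold changes were -0.02 (SE 0.11, adjusted p = 0.922) in knockout and -0.07 (SE 0.13, adjusted p = 0.718) in wildtype lungs.

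Within single libraries, the ratio of Lamb3 to Lama3 RPKM was 1.32 to 1.52 in KO-Bleo and 1.01 to 1.27 in KO-Sal, and 1.69 to 1.89 in WT-Bleo and 0.954 to 1.40 in WT-Sal. The ranges of treated and saline lungs of the same genotype did not overlap, a description without a test. Of 10 markers of basal and transitional epithelium, limma called 3 higher in knockout and 10 in wildtype lungs, beside 13.2% and 18.6% of all genes. Limma-voom called 8 and 10 higher, beside 29.4% and 43.3% of all genes called by it in either direction. The sums of these markers overlapped in knockout lungs (245 to 349 RPKM in KO-Bleo and 208 to 267 RPKM in KO-Sal). In wildtype lungs these markers summed to between 318 and 404 RPKM in WT-Bleo and 202 and 212 RPKM in WT-Sal, without overlap. Their part in the laminin values was not tested.

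**Figure D2:**
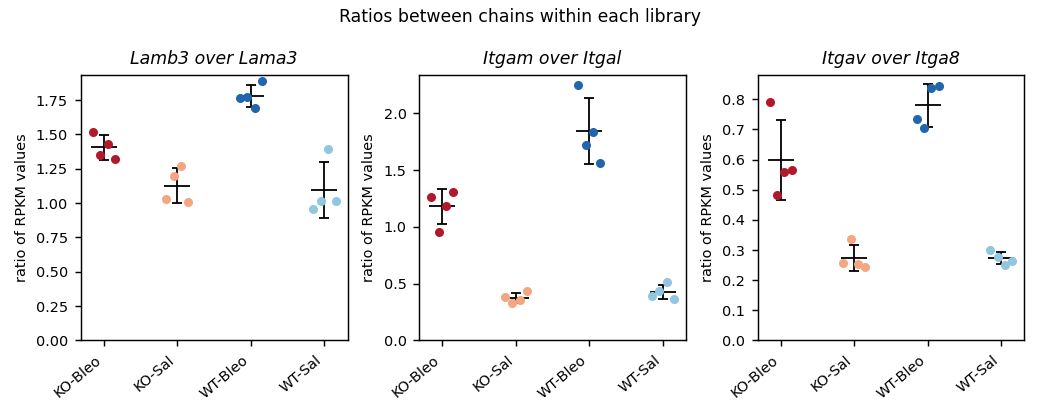
Ratio of the RPKM values of paired chains within each library (vertical axes), for KO-Bleo, KO-Sal, WT-Bleo and WT-Sal. Points are libraries, and the bars give the mean and SD of 4 libraries. Lamb3 over Lama3 reached 1.89 in WT-Bleo and stayed at or under 1.40 in WT-Sal, and Itgam over Itgal lay between 0.326 and 0.433 in KO-Sal and between 0.959 and 1.31 in KO-Bleo.

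Lamc1 (chromosome 1, 153218922 to 153332786 on GRCm38.p6), the gamma chain of most laminins, was the most abundant of the 10 laminin chains per length. It was at 34.8, 37.4, 36.4 and 45.6 RPKM in KO-Bleo, against 30.9, 25.7, 24.4 and 36.3 RPKM in KO-Sal, and at 42.9, 47.3, 39.9 and 47.1 RPKM in WT-Bleo, against 35.4, 36.8, 32.9 and 36.3 RPKM in WT-Sal. WT-Bleo lay above WT-Sal without overlap, and the log2 fold changes were 0.39 (SE 0.13, adjusted p = 0.047) in knockout and 0.32 (SE 0.07, adjusted p = 0.00683) in wildtype lungs. KO-Bleo and KO-Sal overlapped for Lamc1, and that call ended when any library of those groups other than KO-Sal replicate 12 was left out (adjusted p up to 0.115). Lamc3, a minor gamma chain, rose in wildtype lungs (0.44, adjusted p = 0.0115) at a level of at most 2.79 RPKM. Lamb1, a beta chain of many tissues, and Lamb2, a beta chain of kidney, nerve and muscle, were called in neither genotype, with log2 fold changes of 0.14 and -0.10 in knockout and -0.05 and 0.12 in wildtype lungs.

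Of the 4 linkers, 2 rose with bleomycin in knockout and 3 in wildtype lungs, beside 13.2% and 18.6% of all genes. Agrn had the highest mean of them over all 16 libraries, although Nid1 averaged more in both wildtype groups. Agrn was at 43.0, 41.4, 43.3 and 49.2 RPKM in KO-Bleo, against 34.3, 30.6, 31.1 and 39.2 RPKM in KO-Sal, and at 50.6, 54.3, 47.7 and 49.6 RPKM in WT-Bleo, against 34.5, 34.4, 27.1 and 36.4 RPKM in WT-Sal. The treated libraries were higher without overlap, by 0.38 (SE 0.09, adjusted p = 0.0107) in knockout and 0.60 (SE 0.09, adjusted p = 0.000831) in wildtype lungs on the log2 scale. Nid1 was at 36.7, 39.1, 38.3 and 47.6 RPKM in KO-Bleo, against 28.1, 25.4, 23.8 and 33.1 RPKM in KO-Sal, and at 48.4, 56.7, 48.2 and 57.7 RPKM in WT-Bleo, against 41.1, 35.9, 34.7 and 37.6 RPKM in WT-Sal. Again no treated library overlapped the saline libraries of its genotype (0.54, adjusted p = 0.00624 in knockout and 0.49, adjusted p = 0.00152 in wildtype lungs), while both knockout groups lay under the wildtype group of the same treatment. Hspg2 rose in wildtype lungs, with 14.6 ± 1.26 RPKM in WT-Bleo and 10.4 ± 1.68 RPKM in WT-Sal (SD, n = 4 each; 0.46, adjusted p = 0.0115), and stood at 0.05 on the same scale (adjusted p = 0.841) in knockout lungs. Nid2, at 1.33 to 4.07 RPKM, was called in neither genotype.

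**Figure D3:**
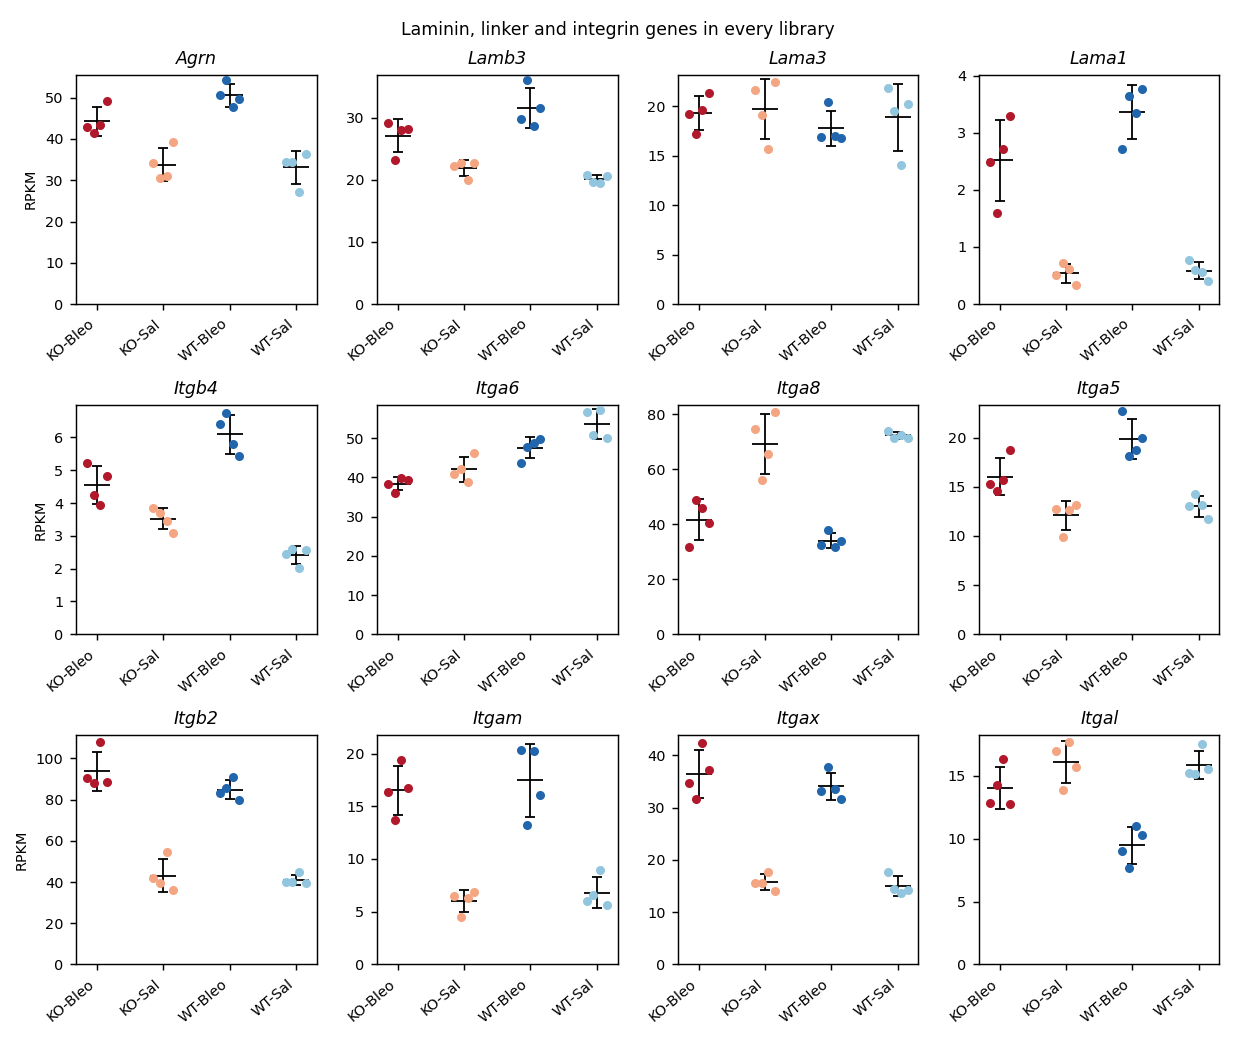
RPKM (vertical axes) of 12 genes in every library, for KO-Bleo, KO-Sal, WT-Bleo and WT-Sal. Points are libraries, and the bars give the mean and SD of 4 libraries. Agrn, Lama1, Itgb2, Itgam and Itgax are higher in the treated groups of both genotypes without overlap, Itga8 is lower, Lama3 overlaps throughout, and Itgb4 runs from 5.42 to 6.76 RPKM in WT-Bleo against 2.02 to 2.60 RPKM in WT-Sal.

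Among the chains that receive laminin, Itgb4, which pairs only with Itga6 and joins hemidesmosomes to keratin, rose in wildtype lungs, and its partner was not called by limma. Itgb4 (chromosome 11, 115974725 to 116008412) was at 5.23, 4.24, 3.94 and 4.82 RPKM in KO-Bleo, against 3.85, 3.70, 3.46 and 3.10 RPKM in KO-Sal, and at 6.41, 6.76, 5.80 and 5.42 RPKM in WT-Bleo, against 2.44, 2.60, 2.02 and 2.58 RPKM in WT-Sal. Neither pair of groups overlapped, but the gap was much wider in wildtype lungs, where the log2 fold change was 1.06 (SE 0.10, adjusted p = 5.31e-05), than in knockout lungs, where it was 0.29 (SE 0.10, adjusted p = 0.0576). The knockout value was not called, but passed without the shallow KO-Bleo replicate 15 (log2 fold change 0.35, adjusted p = 0.025) and with limma-voom (0.42, adjusted p = 0.00576). Itga6 was at 38.3, 36.2, 39.8 and 39.3 RPKM in KO-Bleo, against 40.9, 42.2, 38.8 and 46.3 RPKM in KO-Sal, and at 43.8, 47.8, 48.9 and 49.9 RPKM in WT-Bleo, against 56.7, 50.8, 57.2 and 50.04 RPKM in WT-Sal. Its log2 fold changes were -0.13 (adjusted p = 0.19) in knockout lungs and -0.17 (adjusted p = 0.0825) in wildtype lungs, where WT-Bleo lay under WT-Sal without overlap and limma-voom called it lower (-0.17, adjusted p = 0.0344). Itga7, a laminin receptor best known from muscle, rose by 0.57 (adjusted p = 0.00301) in knockout and 0.58 (adjusted p = 0.00182) in wildtype lungs on the log2 scale. Itga3, an epithelial laminin receptor, averaged 40.01 ± 2.75 RPKM in WT-Bleo and 33.8 ± 1.97 RPKM in WT-Sal (SD, n = 4 each; 0.24, adjusted p = 0.023), a call that ended with median-of-ratios scaling or without WT-Bleo replicate 5 or 8 or WT-Sal replicate 3 (adjusted p up to 0.0632), and had 0.04 (adjusted p = 0.668) in knockout lungs.

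Itga8 (chromosome 2, 12106632 to 12301985 on GRCm38.p6) had the highest mean RPKM of the alpha chains over all 16 libraries, although in WT-Bleo Itga6 and Itga3 averaged more and Itgax about the same, and it had the lowest estimate of the 39 genes with bleomycin in both genotypes. Itga8 pairs with Itgb1, binds nephronectin and marks fibroblasts and smooth muscle of the alveolar wall. It was at 31.6, 48.6, 45.9 and 40.6 RPKM in KO-Bleo, against 74.7, 56.0, 65.3 and 80.9 RPKM in KO-Sal, and at 32.6, 37.9, 31.7 and 33.8 RPKM in WT-Bleo, against 74.0, 71.3, 72.5 and 71.4 RPKM in WT-Sal. No treated library reached a saline library, and the log2 fold changes were -0.72 (SE 0.14, adjusted p = 0.00558) in knockout and -1.07 (SE 0.06, adjusted p = 3.34e-06) in wildtype lungs. KO-Bleo ran wider than WT-Bleo, with the lowest value of both groups in KO-Bleo replicate 13. Of 10 fibroblast markers, 4 rose and 2 fell in knockout and 3 rose and 3 fell in wildtype lungs. Those that fell were Pdgfra (-0.78 in knockout and -0.71 in wildtype lungs) and Tcf21 (-0.55 in knockout and -0.65 in wildtype lungs), both known from alveolar fibroblasts, and in wildtype lungs also Npnt, the gene of nephronectin (-0.70). Those that rose were Col1a1, Col1a2 and Col3a1 in both genotypes and Dpt in knockout lungs. The 10 markers summed to between 717 and 985 RPKM in KO-Bleo and 559 and 744 RPKM in KO-Sal, and to between 857 and 1037 RPKM in WT-Bleo and 755 and 830 RPKM in WT-Sal. Of 10 markers of pericytes and smooth muscle, 1 fell in knockout lungs, and 4 rose and 1 fell in wildtype lungs. These counts and those of the fibroblast markers stand beside 13.2% of all genes called higher and 10.4% called lower in knockout lungs. In wildtype lungs these shares were 18.6% and 12.3%. The part of these cells in the Itga8 values was not tested.

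Of the other 3 RGD-binding chains, Itgav and Itga5 rose in both genotypes. Itgav, whose pairs with Itgb6 and Itgb8 free TGF-beta from its latent form, averaged 24.3 ± 1.22 RPKM in KO-Bleo and 18.6 ± 1.34 RPKM in KO-Sal (0.37, adjusted p = 0.00368), and 26.5 ± 1.87 RPKM in WT-Bleo and 19.8 ± 1.78 RPKM in WT-Sal (0.40, adjusted p = 0.00347; SD, n = 4 each). Its ratio to Itga8 was 0.483 to 0.790 in KO-Bleo and 0.242 to 0.337 in KO-Sal, and 0.705 to 0.845 in WT-Bleo and 0.251 to 0.301 in WT-Sal. Itga5, the alpha chain of the main fibronectin receptor, rose by 0.38 (adjusted p = 0.0226) in knockout and 0.57 (adjusted p = 0.000817) in wildtype lungs on the log2 scale, with the knockout call ending without KO-Bleo replicate 16 (adjusted p = 0.0571). Itga2b, the platelet chain, was called in neither genotype and had 0.481 RPKM in the shallow WT-Bleo replicate 6, beside at least 1.42 RPKM in every other library.

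Of the 3 collagen-binding chains, 1 was called, in knockout lungs alone. Itga11, a collagen receptor of fibroblasts, was at 0.428, 0.487, 0.328 and 0.483 RPKM in KO-Bleo, against 0.822, 0.903, 0.730 and 0.784 RPKM in KO-Sal, and at 0.447, 1.01, 0.441 and 0.472 RPKM in WT-Bleo, against 0.442, 0.620, 0.535 and 0.691 RPKM in WT-Sal. It was lower in every KO-Bleo library than in every KO-Sal library (-0.34, SE 0.08, adjusted p = 0.00966), and the wildtype groups overlapped (0.01, adjusted p = 0.979), with the highest WT-Bleo value in the shallow replicate 6. Itga2 and Itga10 were called in neither genotype.

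In the leukocyte class, the alpha chains Itgam and Itgax rose in both genotypes. Itgam was at 16.3, 13.7, 19.4 and 16.7 RPKM in KO-Bleo, against 6.47, 4.52, 6.30 and 6.82 RPKM in KO-Sal, and at 20.3, 13.2, 20.3 and 16.1 RPKM in WT-Bleo, against 6.01, 6.58, 8.96 and 5.64 RPKM in WT-Sal. Itgax was at 34.7, 31.6, 42.4 and 37.2 RPKM in KO-Bleo, against 15.6, 15.5, 17.7 and 14.02 RPKM in KO-Sal, and at 33.2, 37.8, 33.6 and 31.6 RPKM in WT-Bleo, against 17.7, 14.4, 13.7 and 14.3 RPKM in WT-Sal. Their common partner Itgb2 was at 90.7, 88.2, 108 and 88.4 RPKM in KO-Bleo, against 42.2, 39.4, 54.4 and 36.0 RPKM in KO-Sal, and at 83.2, 85.6, 90.9 and 79.9 RPKM in WT-Bleo, against 39.9, 39.96, 44.8 and 39.6 RPKM in WT-Sal. For all 3 genes the treated libraries stood clear of the saline libraries in both genotypes. The log2 fold changes of Itgam were 1.32 (SE 0.13, adjusted p = 0.000109) in knockout and 1.24 (SE 0.16, adjusted p = 0.000379) in wildtype lungs. Those of Itgax were 1.16 (SE 0.10, adjusted p = 5.15e-05) in knockout and 1.13 (SE 0.09, adjusted p = 1.85e-05) in wildtype lungs. Itgb2 had 1.12 (SE 0.12, adjusted p = 0.000185) in knockout and 1.03 (SE 0.06, adjusted p = 3.55e-06) in wildtype lungs. Itgal, Itgam, Itgax and Itgad all lie on chromosome 7 between positions 127296139 and 128205504 of GRCm38.p6. Of these, Itgam and Itgax rose in both genotypes, while Itgal and Itgad did not rise in either. Of 12 markers of monocyte-derived macrophages, 11 rose in each genotype, beside 13.2% of all genes called higher in knockout and 18.6% in wildtype lungs. These markers summed to 1888 to 2854 RPKM in KO-Bleo and 693 to 828 RPKM in KO-Sal, and to 2578 to 2945 RPKM in WT-Bleo and 748 to 807 RPKM in WT-Sal. Of the 10 alveolar macrophage markers, 2 rose and 5 fell in knockout lungs, and 1 rose and 6 fell in wildtype lungs. None of the 6 neutrophil markers listed was called in either genotype by limma or limma-voom (0 at an unadjusted p under 0.05). In wildtype lungs that test included WT-Sal replicate 3, where these neutrophil markers summed to 708 RPKM, against 141 to 187 RPKM in the other WT-Sal libraries. The part of these cells was not tested.

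Among chains of lymphocyte integrins, limma called Itgal and Itga4 lower in wildtype lungs and Itgb7 lower in both genotypes. Itgal, the alpha chain of LFA-1 on T cells and other leukocytes, was at 12.9, 14.2, 16.3 and 12.8 RPKM in KO-Bleo, against 17.0, 13.9, 17.7 and 15.7 RPKM in KO-Sal, and at 9.05, 7.65, 11.01 and 10.3 RPKM in WT-Bleo, against 15.2, 15.2, 17.6 and 15.6 RPKM in WT-Sal. It fell without overlap in wildtype lungs (-0.69, SE 0.10, adjusted p = 0.000913), and in knockout lungs the groups overlapped (-0.18, SE 0.10, adjusted p = 0.197), although limma-voom called it lower there too (-0.25, adjusted p = 0.0414). Itgb7, the beta chain of the gut-homing and intraepithelial lymphocyte integrins, was at 7.41, 8.61, 9.39 and 9.31 RPKM in KO-Bleo, against 11.1, 10.4, 14.7 and 11.7 RPKM in KO-Sal, and at 6.54, 6.81, 7.22 and 7.71 RPKM in WT-Bleo, against 9.45, 9.83, 11.8 and 11.3 RPKM in WT-Sal. It fell without overlap in both genotypes, with log2 fold changes of -0.42 (SE 0.11, adjusted p = 0.021) in knockout and -0.52 (SE 0.09, adjusted p = 0.00176) in wildtype lungs, and the knockout call ended without KO-Bleo replicate 13 (adjusted p = 0.0609). Itga4, which pairs with Itgb1 or Itgb7 and binds VCAM-1, fell in wildtype lungs (-0.27, adjusted p = 0.0202; not without WT-Sal replicate 2 or 3, adjusted p up to 0.0576) and had 0.05 (adjusted p = 0.789) in knockout lungs. Markers of T and NK cells fell in wildtype lungs for 9 of 10 genes and were called for 0 of 10 in knockout lungs (1 at an unadjusted p under 0.05, and 1 lower by limma-voom on the recovered reads, Gzma), with sums of 42.3 to 67.9 RPKM in KO-Bleo and 46.6 to 89.0 RPKM in KO-Sal, and of 31.8 to 47.4 RPKM in WT-Bleo and 69.8 to 86.0 RPKM in WT-Sal. Of 6 B cell markers, limma called 1 lower in knockout and 3 in wildtype lungs, and limma-voom 3 and 1. The part of lymphocytes in these values was not tested.

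Within single libraries the RPKM of Itgam was 0.959 to 1.31 times that of Itgal in KO-Bleo and 0.326 to 0.433 times in KO-Sal, and 1.56 to 2.25 times in WT-Bleo and 0.362 to 0.510 times in WT-Sal. Itgam was thus the lower of the pair in every saline library, and the higher in every WT-Bleo library and in all KO-Bleo libraries but replicate 14. Itgae, the partner of Itgb7 that binds E-cadherin, rose in knockout lungs (0.38, adjusted p = 0.0426) and not in wildtype lungs (0.06, adjusted p = 0.727), but the knockout call ended when any of the 8 knockout libraries was left out (adjusted p up to 0.108). Itga9, a receptor of tenascin and VCAM-1 on smooth muscle, lymphatic vessels and leukocytes, had -0.09 (adjusted p = 0.45) in knockout and -0.27 (adjusted p = 0.042) in wildtype lungs, where the groups overlapped through WT-Bleo replicate 6 and the call ended when any library other than that one was left out (adjusted p up to 0.106). Itgad, at no more than 0.536 RPKM, was called in neither genotype by limma and lower in both by limma-voom (-1.30, adjusted p = 0.0267 in knockout and -1.08, adjusted p = 0.0311 in wildtype lungs).

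Among the beta chains, Itgb1, the partner of most of the alpha chains, was by far the highest. It was at 315, 301, 329 and 311 RPKM in KO-Bleo, against 260, 255, 255 and 267 RPKM in KO-Sal, and at 321, 338, 345 and 345 RPKM in WT-Bleo, against 319, 287, 301 and 283 RPKM in WT-Sal. The increase was small but without overlap in both, at 0.27 (SE 0.06, adjusted p = 0.00649) in knockout and 0.18 (SE 0.06, adjusted p = 0.0341) in wildtype lungs, where it was not called with median-of-ratios scaling or without WT-Bleo replicate 6, 7 or 8 or WT-Sal replicate 2, 3 or 4 (adjusted p up to 0.132). Its share of the summed beta chain RPKM was 62.8% to 64.2% in KO-Bleo and 66.1% to 70.3% in KO-Sal, and 65.0% to 66.6% in WT-Bleo and 71.7% to 74.9% in WT-Sal, while Itgb2 held 18.3% to 20.6% in KO-Bleo and 9.40% to 14.1% in KO-Sal, and 15.4% to 17.3% in WT-Bleo and 9.38% to 10.8% in WT-Sal. Itgb6, the epithelial partner of Itgav, averaged 24.5 ± 1.87 RPKM in KO-Bleo and 17.9 ± 1.92 RPKM in KO-Sal (0.44, adjusted p = 0.00481), and 26.4 ± 1.52 RPKM in WT-Bleo and 16.1 ± 2.47 RPKM in WT-Sal (0.69, adjusted p = 0.000707; SD, n = 4 each). Itgb5, another partner of Itgav, rose by 0.25 (adjusted p = 0.0276) in knockout and 0.48 (adjusted p = 0.00107) in wildtype lungs, and the knockout call ended without KO-Bleo replicate 13 or 16 or KO-Sal replicate 9, 10 or 11 (adjusted p up to 0.0784). Itgb3, the beta chain of platelets and osteoclasts, and Itgb8 were called in neither by limma, but passed in wildtype lungs without the shallow WT-Bleo replicate 6 (log2 fold changes -0.18 and 0.30, adjusted p = 0.0421 and 0.0104), and Itgb3 in knockout lungs without the shallow KO-Bleo replicate 15 (-0.26, adjusted p = 0.0384). Limma-voom called Itgb3 lower in both genotypes and Itgb8 higher in wildtype lungs.

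The question of the study was what the loss of IL-31RA changes, so knockout and wildtype lungs were compared under each treatment. Under bleomycin 0 of the 39 genes were called by limma, beside 0.214% of all genes, and 11 had an unadjusted p under 0.05, beside 11.1% of all genes. The estimates were lower in KO-Bleo for 25 of the 39 genes and for 12 of the 14 laminin chains and linkers, none of them called by limma. The median log2 fold change was -0.10 over the 39, -0.20 over these 14 and 0.01 over all genes. Under saline 18 of the 39 estimates were lower in knockout lungs, and the 14 had a median of -0.005. The share of lower estimates over all genes was not counted, and the lean was not tested. KO-Bleo and WT-Bleo did not overlap for 5 genes, beside 8.48% of all genes: Itgal was higher in KO-Bleo, and Nid1, Itga6, Itgb4 and Itgb5 were lower. By limma-voom on the recovered reads, 1 gene was higher (Itgal) and 2 were lower (Nid1 and Itga6), beside 3.55% of all genes called.

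The smallest p under bleomycin belonged to Itga6, at 38.4 ± 1.63 RPKM in KO-Bleo and 47.6 ± 2.70 RPKM in WT-Bleo (SD, n = 4 each; -0.30, SE 0.06, adjusted p = 0.0888 from limma). Itgal averaged 14.1 ± 1.65 RPKM in KO-Bleo and 9.496 ± 1.48 RPKM in WT-Bleo (0.52, SE 0.12, adjusted p = 0.124 from limma). Nid1 averaged 40.4 ± 4.86 RPKM in KO-Bleo and 52.8 ± 5.13 RPKM in WT-Bleo (-0.38, SE 0.10, adjusted p = 0.165 from limma). None of the 3 passed, and Itga6 and Itgal passed when only genes with at least 10 reads in every library were tested, with the spread of all 4 groups shared and with library quality weights (adjusted p between 0.0120 and 0.0459 over both genes). Beside Itgal, 4 of 10 T and NK cell markers had an unadjusted p under 0.05 and 0 were called by limma or limma-voom, with sums of 42.3 to 67.9 RPKM in KO-Bleo and 31.8 to 47.4 RPKM in WT-Bleo. Beside Itgb4 (-0.35, adjusted p = 0.246), 6 of 10 basal and transitional markers had an unadjusted p under 0.05, 0 were called by limma and 4 were lower by limma-voom (Areg, Cldn4, Krt14 and Sfn), with sums of 245 to 349 RPKM in KO-Bleo and 318 to 404 RPKM in WT-Bleo. Of 8 alveolar type 2 markers, 5 were called higher in KO-Bleo by limma and 8 by limma-voom, with sums of 16520 to 18197 RPKM in KO-Bleo and 11582 to 12946 RPKM in WT-Bleo. Of 10 pericyte and smooth muscle markers, 6 had an unadjusted p under 0.05, and limma and limma-voom each called 1 lower (Rgs5 by limma-voom). They summed to 150 to 211 RPKM in KO-Bleo and 220 to 294 RPKM in WT-Bleo. Of 10 fibroblast markers, 4 had an unadjusted p under 0.05 and 0 were called by either. The part of these cells was not tested.

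Under saline 0 of the 39 genes were called by limma, beside 0.0488% of all genes, and 11 had an unadjusted p under 0.05, beside 16.2% of all genes. The median log2 fold change was 0.03 over the 39 genes and 0.03 over all genes. KO-Sal and WT-Sal did not overlap for 7 genes, beside 9.66% of all genes: Itga11 and Itgb4 were higher in KO-Sal, and Lamb1, Nid1, Itga6, Itga9 and Itgb1 were lower. Itga6 averaged 42.1 ± 3.13 RPKM in KO-Sal and 53.7 ± 3.80 RPKM in WT-Sal (SD, n = 4 each; -0.35, SE 0.07, adjusted p = 0.0706 from limma). Nid1 averaged 27.6 ± 4.09 RPKM in KO-Sal and 37.3 ± 2.78 RPKM in WT-Sal (-0.43, adjusted p = 0.0798 from limma), and Itgb4 averaged 3.53 ± 0.328 RPKM in KO-Sal and 2.41 ± 0.270 RPKM in WT-Sal (0.41, adjusted p = 0.0796 from limma). Itga6 and Nid1 thus had estimates of like size under both treatments, with no library shared between the comparisons. By limma-voom on the reads, 1 gene was higher (Itgb4) and 1 was lower (Itga6), beside 0.715% of all genes called. Without KO-Sal replicate 12, 1 was higher (Itgb4) and 4 were lower (Lamb1, Lamc1, Nid1 and Itga6), beside 4.41% of all genes called. Among fibroblast markers 7 of 10 had an unadjusted p under 0.05, with sums of 559 to 744 RPKM in KO-Sal and 755 to 830 RPKM in WT-Sal. Among pericyte and smooth muscle markers 3 of 10 did, and limma and limma-voom called 0 in both lists. The part of these cells was not tested. Nid1 and Itga2 lie on chromosome 13, as does the deleted Il31ra, at 99.0 and 2.25 Mb from it, and Itga2 was not called (0.05 under bleomycin and -0.13 under saline). The wildtype columns carry 15 significant digits (median) and the knockout columns 10, and a batch that followed the genotype cannot be told apart from it.

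**Figure D4:**
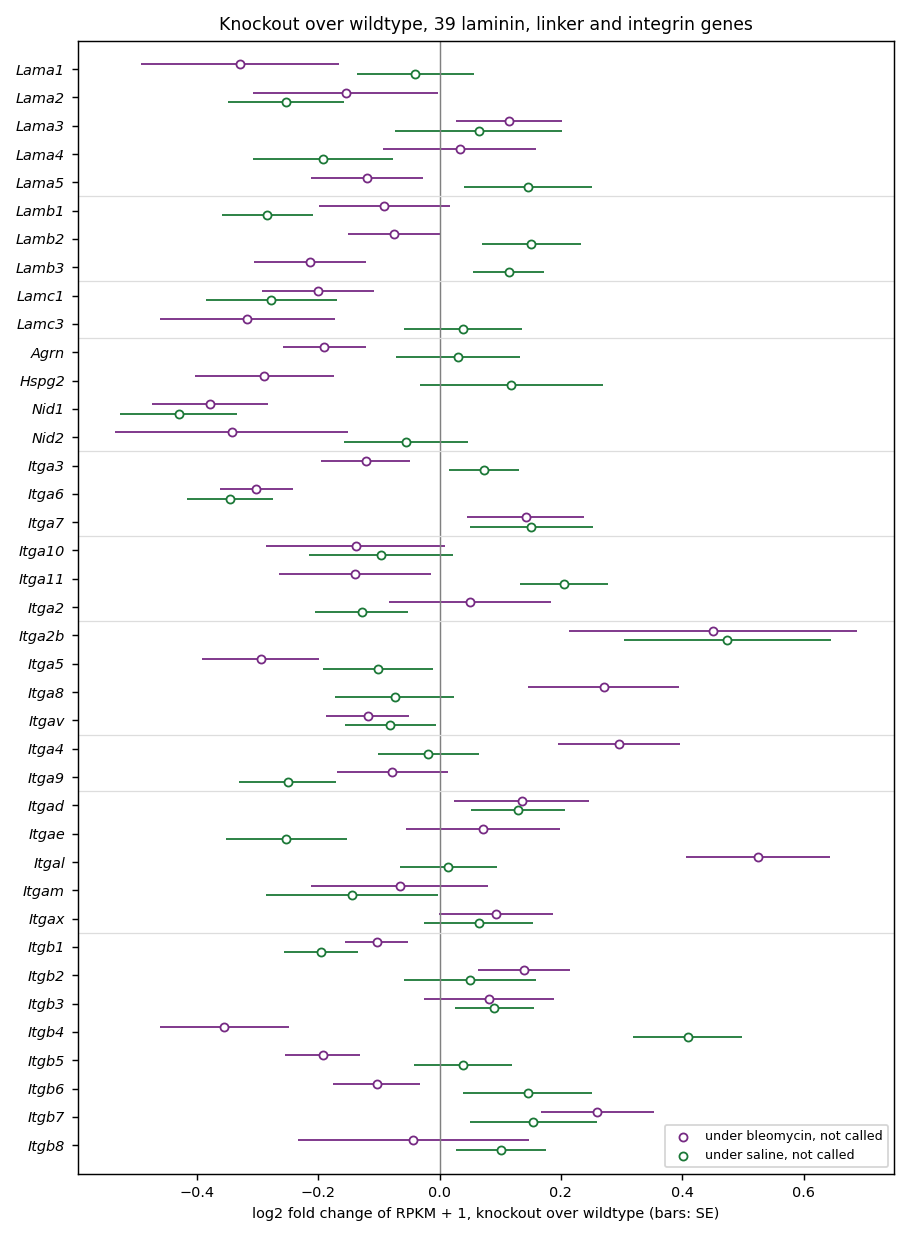
Log2 fold change of RPKM + 1 between knockout and wildtype lungs for each of the 39 genes (horizontal axis, knockout over wildtype), under bleomycin (purple) and saline (green). Points are estimates from 4 libraries against 4 and bars are standard errors, and open points mark that no gene passed the test. Itgb4 lies at -0.35 under bleomycin and at 0.41 under saline, Itgal at 0.52 and 0.01, and Itga6 at -0.30 and -0.35.

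The difference between the genotypes in the response to bleomycin was tested as an interaction over all 4 groups, and 1 of the 39 genes was called, beside 0.22% of all genes, with 6 at an unadjusted p under 0.05, beside 11% of all genes. This gene was Itgb4, whose change in knockout lungs minus that in wildtype lungs was -0.76 (SE 0.14, adjusted p = 0.0345 from limma) on the log2 scale. All KO-Bleo libraries lay below all WT-Bleo libraries, and all KO-Sal libraries lay above all WT-Sal libraries. The estimate kept its sign in every alternative run, between -0.95 and -0.42, but the call ended when any of 10 of the 16 libraries was left out (KO-Bleo replicates 14 and 15, KO-Sal replicates 9, 10 and 11, WT-Bleo replicate 5, WT-Sal replicates 1, 2, 3 and 4) and without both shallow libraries, with adjusted p between 0.0514 and 0.0877 in those. Epithelial markers were counted in the same interaction. Of 8 alveolar type 2 markers, 4 were called higher by limma, opposite in sign to Itgb4 (median 0.49, 8 at an unadjusted p under 0.05). Of 10 basal and transitional markers, 0 were called by limma or limma-voom and 6 had an unadjusted p under 0.05 (estimates from -0.91 to -0.18, median -0.51). Their part in the Itgb4 values was not tested. Itgal, with the highest estimate of the 39 genes, had 0.51 (SE 0.15, adjusted p = 0.238).

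Around the integrins and laminins, partner genes from lists written with earlier results known were counted in the same fits. Their counts stand beside 13.2% of all genes called higher and 10.4% called lower in knockout lungs, and 18.6% and 12.3% in wildtype lungs. Of 18 listed integrin ligands outside the laminins, 10 rose and 1 fell in knockout lungs and 10 rose and 3 fell in wildtype lungs. Spp1, which encodes osteopontin, averaged 921 RPKM in KO-Bleo and 34.8 RPKM in KO-Sal and rose by 4.70 (adjusted p = 6.88e-06) in knockout lungs, and averaged 1026 RPKM in WT-Bleo and 47.3 RPKM in WT-Sal and rose by 4.42 (adjusted p = 2.85e-08) in wildtype lungs on the log2 scale. Tnc (tenascin C) rose by 2.62 (adjusted p = 1.63e-05) in knockout and 2.63 (adjusted p = 5.82e-06) in wildtype lungs. Fn1 (fibronectin), the ligand of the Itga5 receptor, rose by 1.96 (adjusted p = 3.61e-05) in knockout and 2.56 (adjusted p = 4.57e-07) in wildtype lungs. Each of these 3 estimates exceeds that of every integrin chain in the same genotype, without a test between genes. Spp1 also stands among the macrophage markers.

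Of 19 basement membrane collagens and partners, 6 rose and 4 fell in knockout and 7 rose and 4 fell in wildtype lungs. Col4a1, a chain of the type IV collagen network that the linkers join to laminin, rose by 0.99 (adjusted p = 0.000265) in knockout and 1.13 (adjusted p = 6.22e-06) in wildtype lungs. Col4a2, its partner chain, rose by 0.84 (adjusted p = 0.000552) in knockout and 1.10 (adjusted p = 8.35e-06) in wildtype lungs. Col18a1, a collagen of epithelial and vascular basement membranes, rose by 0.79 (adjusted p = 0.000354) in knockout and 1.09 (adjusted p = 7.01e-06) in wildtype lungs. Sparc, a collagen-binding matrix protein, rose by 1.06 (adjusted p = 8.75e-05) in knockout and 1.08 (adjusted p = 2.41e-05) in wildtype lungs. Ntn4, a netrin that binds laminin gamma chains, fell in both, with -0.56 (adjusted p = 0.000229) in knockout and -0.44 (adjusted p = 0.00274) in wildtype lungs. The wildtype estimates of Col4a1 and Col4a2 exceed those of Lamc1, Lamb1 and the linkers and lie under that of Lama1 (1.47), without a test between genes. The other type IV chains were not called higher by limma in knockout lungs, which does not show that they stayed level. There limma did not call Col4a3 (0.22, adjusted p = 0.162), Col4a4 (0.05, adjusted p = 0.712) or Col4a5 (0.23, SE 0.08, adjusted p = 0.059). It called Col4a6 lower (-0.38, adjusted p = 0.0113).

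Of 9 laminin receptors other than integrins, 2 rose and 0 fell in knockout and 4 rose and 2 fell in wildtype lungs. Sdc1, a heparan sulfate proteoglycan of epithelia, rose by 0.48 (adjusted p = 0.0017) in knockout and 0.60 (adjusted p = 2.34e-05) in wildtype lungs. Cd151, a tetraspanin that binds the laminin-binding integrins, rose by 0.33 (adjusted p = 0.00293) in knockout and 0.41 (adjusted p = 0.000337) in wildtype lungs. Sdc2, a related proteoglycan of mesenchymal cells, had -0.18 (adjusted p = 0.187) in knockout lungs and fell in wildtype lungs (-0.39, adjusted p = 0.000842).

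Of 27 activators and adaptors inside the cell, 5 rose and 5 fell in knockout and 7 rose and 5 fell in wildtype lungs. Actn1, which links integrins to actin, rose by 0.47 (adjusted p = 0.00107) in knockout and 0.89 (adjusted p = 1.15e-05) in wildtype lungs. Fermt3, the kindlin of blood cells, rose by 0.44 (adjusted p = 0.0278) in knockout and 0.56 (adjusted p = 0.000321) in wildtype lungs. Fermt2, the kindlin of mesenchymal and other adherent cells, fell in both genotypes, with -0.22 (adjusted p = 0.0393) in knockout and -0.47 (adjusted p = 0.000251) in wildtype lungs. Tns1, a tensin of fibrillar adhesions, fell as well, with -0.59 (adjusted p = 0.00146) in knockout and -0.68 (adjusted p = 0.000781) in wildtype lungs. Apbb1ip, which activates integrins in leukocytes through talin, rose in knockout lungs (0.51, adjusted p = 0.00457) and had 0.19 (adjusted p = 0.243) in wildtype lungs.

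Between the genotypes, 0 genes of these 4 lists were called by limma under either treatment or in the interaction. Under bleomycin, 8 of 18 ligands, 7 of 19 basement membrane collagens and partners, 2 of 9 laminin receptors and 5 of 27 adaptors had an unadjusted p under 0.05, beside 11.1% of all genes, and limma-voom on the reads called 6 genes, all lower in KO-Bleo (Fn1, Col4a1, Col4a2, Col18a1, Sparc and Actn1), beside 3.55% of all genes called by it in either direction. Under saline, 8 of 18, 7 of 19, 0 of 9 and 6 of 27 genes of the same lists had an unadjusted p under 0.05, beside 16.2% of all genes, and limma-voom called Fermt1, a kindlin of epithelia, higher and Sparc lower in KO-Sal, beside 0.715% of all genes called by it. In the interaction, 5, 3, 0 and 3 genes of the same lists had an unadjusted p under 0.05, beside 11% of all genes, and limma-voom called 0, beside 0.495% of all genes. The genes named by limma-voom are the whole of its calls in these lists.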

How the data were processed

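RNA of whole lungs was sequenced in 16 libraries, 4 per group, and groups were taken from the sample titles. Tools and build in the submitters' processing notes are TopHat, DESeq, bcl2fastq, CASAVA 1.8 and mm10, without roles. The table deposited by the authors is in RPKM, a unit that no source names and that was inferred from the values: for 16367 of 16380 genes (99.92%, relative tolerance 6e-08) they are multiples of a smallest step that depends on gene and library, and the product of this step and the total of reads varied over libraries by a relative 0.00017. All genes and columns were used (0 columns left out). An integrin alpha chain and a laminin chain are not reported here.

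limma 3.58.1 in R 4.3.3, with a variance trend and the robust option, was fitted to log2(RPKM + 1) of the groups compared, or of all 4 groups for the interaction (change in knockout minus change in wildtype lungs). Benjamini-Hochberg adjustment covered every listed gene, and an adjusted p under 0.05 was a call. The study used mice of both sexes. The sources do not tie a library to its own mouse, sex, cage or run, so p-values measure the spread between these libraries. Recovered reads gave depth (604136 to 32153714 per library), a filter and limma-voom. The number of libraries and the depth of the shallow ones limit the precision. The fitting code was tested on simulated data.

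Alternatives were pseudocounts of 0.1 and 5, a mean of at least 1 RPKM, at least 10 reads in every library, limma-voom, one spread for the 4 groups, median-of-ratios scaling, library quality weights, and leaving out each library or both shallow ones. Genes, lists, tests and alternatives were chosen with earlier results of these data known. Values in every library are given for the 4 highest and 4 lowest called genes of each bleomycin comparison, genes called between genotypes (or the 3 with the smallest p), and the most abundant gene of each class, and up to 3 called genes with the smallest p from each partner list. Lamb3 and Lama3, the fibroblast markers named, the promoter shown for Itgax and the genes named as called under an alternative fall outside this rule and were chosen after their values were seen. The same holds for Col4a3, Col4a4, Col4a5 and Col4a6. Gene positions are from the RefSeq annotation of GRCm38.p6, the assembly also called mm10, and promoters from RefSeq windows on it. Of the genes in the lists, Madcam1, Fgb, Trac, Mpo, Ly6g and the haemoglobin genes were not matched to a listed symbol.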

Additional observations from a re-analysis of the deposited data

Results flagged for a closer look

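Among 156 sets of 4 libraries (39 genes in 4 groups), 13 held a library set apart from the other 3 by Dixon's criterion, which chance alone meets in about 1 of 20 sets. WT-Sal replicate 3 was set apart for Lama5 (9.25 RPKM), Itga3 (30.8 RPKM), Itgal (17.6 RPKM) and Itgb2 (44.8 RPKM), being the lowest of its group for Lama5 and Itga3 and the highest for Itgal and Itgb2. The 6 neutrophil markers listed summed to 708 RPKM in that library and to between 141 and 187 RPKM in the other WT-Sal libraries, and their part in these values was not tested. The shallow WT-Bleo replicate 6 was the highest of its group for Lama3 (20.4 RPKM), Itga11 (1.01 RPKM) and Itga9 (27.1 RPKM), and the shallow KO-Bleo replicate 15 for Itgb2 (108 RPKM). KO-Sal replicate 10 was the lowest of its group for Itga5 (9.93 RPKM) and Itga4 (10.4 RPKM). KO-Sal replicate 11 was the lowest for Lamb3 (19.9 RPKM) and the highest for Itgad (0.536 RPKM), and KO-Bleo replicate 16 was the highest for Lama5 (16.6 RPKM).

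The change of Itgb4 with bleomycin was called different between the genotypes in the interaction test, with an estimate of -0.76 (SE 0.14, adjusted p = 0.0345 from limma), from a log2 fold change of 0.29 in knockout and 1.06 in wildtype lungs. The call ended without both shallow libraries and when any of several single libraries was left out. Its saline values also differed, since all KO-Sal libraries lay above all WT-Sal libraries.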

How the results depend on the processing

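No called gene reversed its direction under any of the 91 alternative fits over the 5 comparisons, 2 of which repeat another, since each genotype holds 1 shallow library. For bleomycin in wildtype lungs, 19 of the 25 calls passed in every alternative in which they were tested, and leaving out 1 library gave 17 to 19 genes higher and 3 to 7 lower. For bleomycin in knockout lungs, 12 of the 18 calls passed in every such alternative. The count of lower genes there was 6 with limma-voom, 7 with library quality weights and 5 without both shallow libraries (here the same fit as without KO-Bleo replicate 15), and leaving out 1 library gave 10 to 14 higher and 2 to 5 lower. Between genotypes under bleomycin, 1 gene was higher and 1 lower with a shared spread, with quality weights and with the filter on 10 reads, and 1 was higher and 2 lower with limma-voom. Under saline, 1 was higher and 1 lower with limma-voom, 0 higher and 1 lower with a shared spread and with quality weights, and 0 to 1 higher and 0 to 4 lower when 1 library was left out. The interaction called 0 genes lower without both shallow libraries and 0 to 1 when 1 library was left out. The causes were not tested. Depth limits Itga10, Itga11, Itga2b, Itgad, Itgae, Itgb8 and Nid2, which had few reads in the shallow libraries. No paired analysis was possible because the replicate numbers run from 1 to 16 and no number is shared between groups.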

Other observations

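Further marker lists were counted by limma in the bleomycin comparisons, beside 23.6% of all genes called in knockout and 30.9% in wildtype lungs. Of 8 alveolar type 2 markers, 1 rose and 2 fell in knockout lungs and 7 fell in wildtype lungs, with sums of 16520 to 18197 RPKM in KO-Bleo and 17965 to 21521 RPKM in KO-Sal, and of 11582 to 12946 RPKM in WT-Bleo and 20094 to 23586 RPKM in WT-Sal. Of 9 alveolar type 1 markers, 1 rose and 4 fell in knockout and 2 rose and 4 fell in wildtype lungs. Of 6 mesothelial markers, 4 fell in knockout lungs and 2 rose and 2 fell in wildtype lungs. Of 8 markers of megakaryocytes and platelets, 1 fell in knockout lungs and 1 rose and 1 fell in wildtype lungs. Of 2 erythroid markers listed, 1 fell in knockout and 2 in wildtype lungs.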
